A study of Homo sapiens with 8 samples.

Results

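The isoleucine tRNA genes with the anticodons TAT and GAT were examined for listed RNA polymerase III regions in MDA-MB-231, a human breast cancer cell line, and in MDA-LM2, its highly metastatic derivative selected in mice for growth in the lung. Chromatin was immunoprecipitated with an antibody to POLR3A, the largest subunit of the polymerase, and sequenced in 2 libraries per line, with no treatment that differed between the lines in the labels. The members were the 5 Ile-TAT genes, taken as listed when a region lay within 500 bp, and the 3 Ile-GAT genes, taken as 1 span of chromosome X between 3.7 and 3.9 Mb. This rule found 4 of the 1222 regions listed over the 4 libraries. Libraries 1 and 2 of a line are replicates 1 and 2 of the labels, which do not say whether they were separate cultures, so p-values measure only the spread between these libraries.

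RNA polymerase III makes tRNAs, 5S rRNA and other short RNAs. At tRNA genes the factor TFIIIC binds promoter elements inside the transcribed gene and brings TFIIIB to the DNA just upstream, and TFIIIB recruits the polymerase. A tRNA with the anticodon UAU (TAT in the gene) reads the isoleucine codon AUA, and one with GAU (GAT in the gene) reads AUC. The human Ile-TAT genes carry an intron that is spliced from the precursor. The study is known for reporting that tRNA Ile-UAU was more abundant and tRNA Ile-GAU less abundant in highly metastatic breast cancer cells. That report, with any statement it makes on polymerase occupancy at these genes, was not among the sources used here. The lists show only where a POLR3A region passed the authors' threshold in each library, which is a different measure from tRNA abundance.

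The genes lie on 4 chromosomes of hg19. TRI-TAT1-1 is on chromosome 19 at 39902808 to 39902900 and TRI-TAT2-1 on chromosome 2 at 43037676 to 43037768, each 93 bp long. The other 3 are 94 bp long and lie on chromosome 6, with TRI-TAT2-2 at 26988125 to 26988218, TRI-TAT2-3 at 27599200 to 27599293 and TRI-TAT3-1 at 28505367 to 28505460. All 5 lengths equal those of the same symbols in the RefSeq gene table of GRCh38.p14, which was used for names and gene order only. In that order TRI-TAT1-1 stands between the microRNA gene MIR4530 and PLEKHG2, outside any other gene, and TRI-TAT2-1 stands between the pseudogenes FTOP1 and CHORDC1P1. TRI-TAT2-2 lies inside the long non-coding RNA gene LINC00240, beside LARRPM. TRI-TAT2-3 has a tRNA gene on either side, TRT-CGT5-1 and TRV-AAC3-1, and TRI-TAT3-1 follows GPX5, which encodes a glutathione peroxidase. The Ile-GAT genes TRI-GAT1-1, TRI-GAT1-2 and TRI-GAT1-3 are 74 bp long in the table, and each lies inside a transcribed pseudogene (LOC389906, FAM239A and FAM239B). Their own hg19 positions were not used here, so the whole span stands for all 3.

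Of the 5 Ile-TAT genes, the 2 that stand alone on chromosomes 19 and 2 were listed, and the 3 on chromosome 6 were not. TRI-TAT1-1 and TRI-TAT2-1 were each listed in MDA-MB-231 library 1 and in MDA-LM2 library 2, and in neither of the other libraries. Thus MDA-MB-231 libraries 1 and 2 listed 2 and 0 of the 5 genes, and MDA-LM2 libraries 1 and 2 listed 0 and 2. Each line therefore had 1 library with both genes and 1 with none, and the lines overlapped fully. The mean was 1 ± 1.41 genes in each line (SD, n = 2), and the difference was 0 (exact permutation test, two-sided p = 1, where 2 libraries against 2 cannot go below 0.33). Leaving out 1 library moved the difference, MDA-LM2 minus MDA-MB-231, to 1 without MDA-MB-231 library 1 or MDA-LM2 library 1, and to -1 without MDA-MB-231 library 2 or MDA-LM2 library 2 (exact permutation p = 1 in each, where 1 library against 2 cannot go below 0.33).

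The libraries with both genes were those with the long lists. MDA-MB-231 library 1 listed 646 regions and MDA-LM2 library 2 listed 472, against 18 in MDA-MB-231 library 2 and 86 in MDA-LM2 library 1. The 4 lists merged into 788 regions, of which these libraries held 78.7%, 55.1%, 2.28% and 9.64% in that order. All 4 libraries held 1.27%. A listing by exactly MDA-MB-231 library 1 and MDA-LM2 library 2, as at both Ile-TAT genes, was shared by 27.9% of the merged regions. A listing by at least 1 library of each line was found for 36.8%, a listing by both MDA-LM2 libraries alone for 0.381% and by both MDA-MB-231 libraries alone for 0%. These shares are over all regions already listed, which were not sorted by whether they lie at polymerase III genes. They are therefore no rate among such genes. The share of all tRNA genes listed in each library was not computed, as no hg19 annotation was used, so the 2 of 5 has no background of the same kind. With each list cut to its strongest 18 regions, no Ile-TAT gene was left in any library. What the lists would hold at equal depth was not tested, since the depth of the libraries is unknown. A gene that is not listed is one without a region past the authors' threshold, and no signal outside listed regions was analysed here.

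At TRI-TAT1-1 the region of MDA-MB-231 library 1 ran from 39902702 to 39902976 and covered the whole gene. Its pile-up, read from the values as the number of overlapping reads or fragments at the highest position, was 22. Its strength score, a number the authors gave each region without a stated definition, was 15.4. That score ranked 402nd of the 646 regions in its list and was the lowest of the 19 regions on chromosome 19. In MDA-LM2 library 2 the region ran from 39902822 to 39903122 and covered 79 of the 93 bp of the gene. It had a pile-up of 29 and a score of 20.0, which ranked 92nd of 472 in the list and 7th of 12 on the chromosome. TRI-TAT1-1 thus lay in the lower part of one list, at the 37.9th percentile by score, and in the upper part of the other, at the 80.7th. Scores and heights rank regions within 1 list, and each line contributes 1 library here, so no difference between the lines can be read from these ranks.

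At TRI-TAT2-1 both regions were among the weaker ones. MDA-MB-231 library 1 listed 43037654 to 43037773, a region of 119 bp that covered the whole gene, with a pile-up of 14 and a score of 10.9. Its score ranked 623rd of 646, at the 3.72nd percentile, and 52nd of the 53 regions on chromosome 2. MDA-LM2 library 2 listed 43037771 to 43037935, a region of 164 bp that began 3 bp beyond the upper end of the gene and covered none of it. Here too the pile-up was 14, and the score of 10.9 ranked 364th of 472, at the 23.1st percentile. The 2 regions overlapped each other by only 2 bp. Counted by direct overlap with the gene in place of the 500 bp window, TRI-TAT2-1 was listed in MDA-MB-231 library 1 alone, and the difference in genes listed became -0.5 (exact permutation p = 1).

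**Figure D1:**
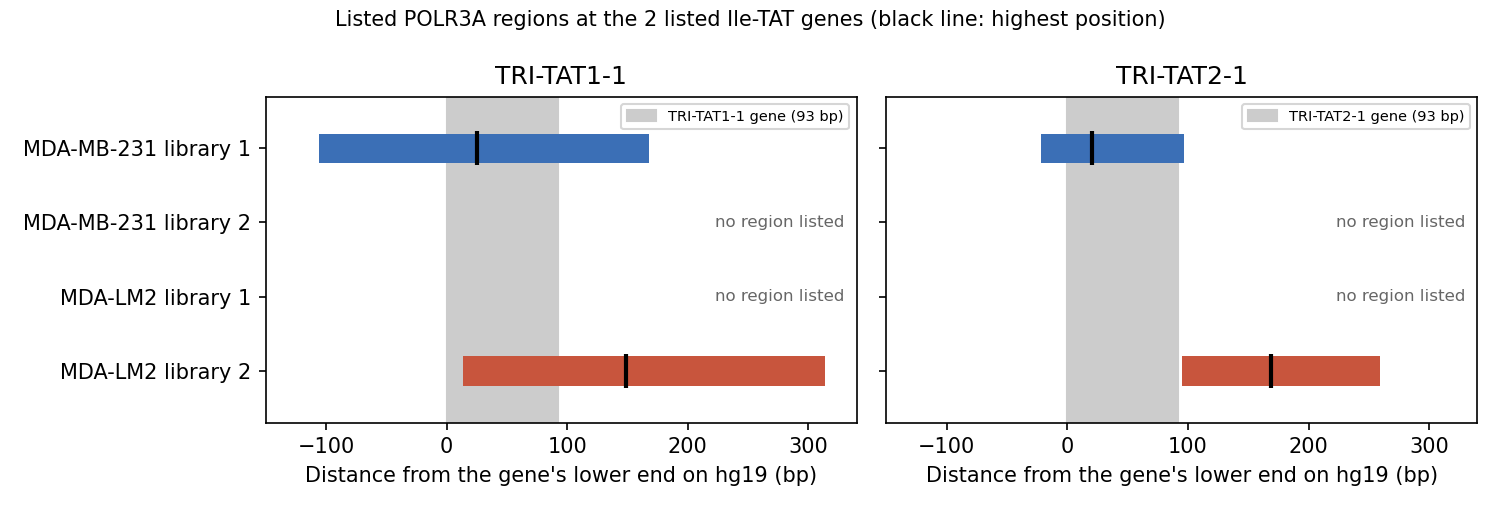
Listed regions at TRI-TAT1-1 (left) and TRI-TAT2-1 (right) by library, in bp from the lower end of the gene on hg19. The grey band is the 93 bp gene, bars are listed regions (blue MDA-MB-231, red MDA-LM2) and black lines mark their highest positions, which lie inside the gene in MDA-MB-231 library 1 and beyond its upper end in MDA-LM2 library 2.

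In hg19 coordinates, the highest positions were placed alike at the 2 genes within each library and differently between the libraries. The strands of the genes were not used, so placement relative to the start of transcription is not given. In MDA-MB-231 library 1 they lay inside the genes, 25 bp from the lower end of TRI-TAT1-1 and 20 bp from that of TRI-TAT2-1. In MDA-LM2 library 2 they lay outside, 57 and 77 bp beyond the upper ends. The step from the first library to the second was 124 bp at TRI-TAT1-1 and 149 bp at TRI-TAT2-1, toward higher positions at both. For comparison, 234 merged regions held exactly 1 region of each of these libraries with a direct overlap. Over these pairs the median step, without regard to direction, was 40 bp (quartiles 9 and 128.75 bp), and 26.9% and 20.5% of them had steps at least as long as those at TRI-TAT1-1 and TRI-TAT2-1. Steps went toward higher positions in 106 pairs, toward lower ones in 117 and were 0 in 11, so the pairs had no common direction. The overlap of 2 bp at TRI-TAT2-1 was at the low end, as only 2 of the 234 pairs, itself included, overlapped by so little, against a median of 170 bp.

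Ranked only among those 234 shared regions, TRI-TAT1-1 stood 183rd in MDA-MB-231 library 1 and 32nd in MDA-LM2 library 2 by score. TRI-TAT2-1 stood 232nd and 182nd. This ranking, chosen after the data were seen, uses the same merged regions in both libraries. The regions paired within them need only overlap. At TRI-TAT2-1 they shared 2 bp, so there the ranks compare largely different stretches. Both genes ranked higher in the MDA-LM2 library than in the MDA-MB-231 library, TRI-TAT1-1 by the wider margin. At TRI-TAT2-1 the pile-up was 14 and the score 10.9 in both libraries. The median score of the whole list was 16.9 in MDA-MB-231 library 1 and 13.4 in MDA-LM2 library 2. With 1 library of each line there is no replicate check of that order, and no difference between the lines can be read from it.

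**Figure D2:**
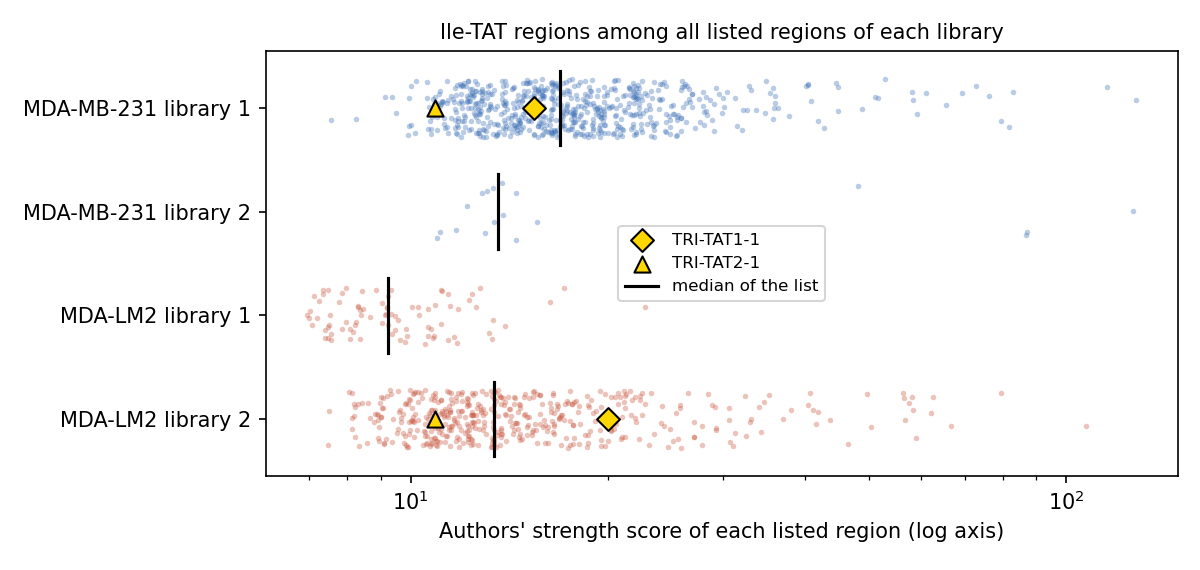
The authors' strength score (log axis) of each listed region by library, with vertical jitter for display only. Black lines are list medians and yellow symbols the Ile-TAT regions. TRI-TAT1-1 (diamond) lies below the median in MDA-MB-231 library 1 and above it in MDA-LM2 library 2, and TRI-TAT2-1 (triangle) below it in both.

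The lowest values in each list are a description and not the authors' threshold, which is unknown. The lowest score was 10.97 in MDA-MB-231 library 2, with a lowest pile-up of 13, and 6.95 in MDA-LM2 library 1, with a lowest pile-up of 7. MDA-MB-231 library 1 and MDA-LM2 library 2 had lowest scores of 7.56 and 7.50 and lowest pile-ups of 10 and 9. The values are not corrected for depth, so they cannot be set against the pile-ups of 14 to 29 at the Ile-TAT genes in other libraries.

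Both listed genes stood several Mb from other listed regions. MDA-MB-231 library 1 and MDA-LM2 library 2 listed 19 and 12 regions on chromosome 19, and 53 and 41 on chromosome 2. The usual spacing of regions was not computed, so these distances are no trait of the 2 genes. In MDA-MB-231 library 1 the next regions on either side of TRI-TAT1-1 were 6.23 and 6.08 Mb away. In MDA-LM2 library 2 the next was 12.0 Mb away on the lower side, and none followed on the upper side. Around TRI-TAT2-1 the next regions were 15.8 and 6.42 Mb away in MDA-MB-231 library 1 and 15.8 and 27.4 Mb away in MDA-LM2 library 2. The table of gene order has 7 nuclear tRNA genes on chromosome 19 and 8 on chromosome 2. In the libraries that did not list TRI-TAT1-1, the nearest region was on chromosome 19 at 1383196 to 1383540 in MDA-MB-231 library 2, 38.5 Mb away, and at 4723989 to 4724294 in MDA-LM2 library 1, 35.2 Mb away. MDA-LM2 library 1 listed 3 regions on chromosome 2, the nearest to TRI-TAT2-1 at 27274055 to 27274219, 15.8 Mb away, and MDA-MB-231 library 2 listed none on that chromosome.

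**Figure D3:**
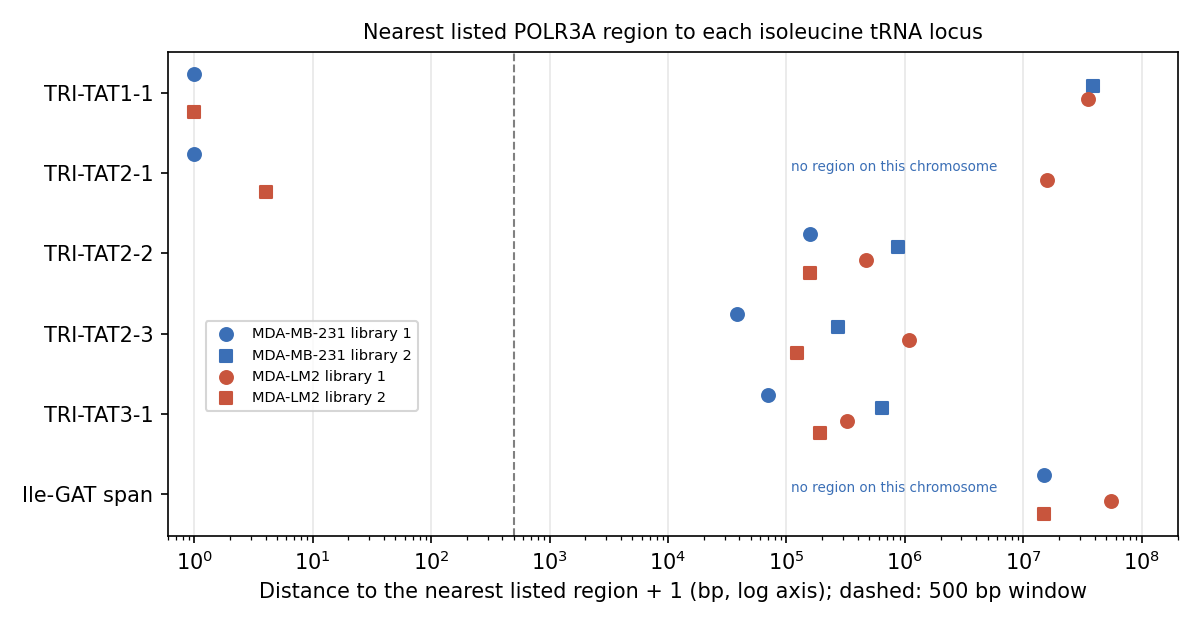
Distance from each isoleucine tRNA locus to the nearest listed region of each library, plus 1 bp, on a log axis (blue MDA-MB-231, red MDA-LM2; circles library 1, squares library 2). Only 4 points, at TRI-TAT1-1 and TRI-TAT2-1, lie left of the dashed line at 500 bp. MDA-MB-231 library 2 listed no region on chromosomes 2 and X.

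The Ile-TAT genes of chromosome 6 were absent from all 4 lists. In MDA-MB-231 library 1, MDA-LM2 library 1 and MDA-LM2 library 2 regions lay on both sides of each of the 3, while MDA-MB-231 library 2 listed a single region on the chromosome. This part of the chromosome carries the largest group of human tRNA genes, and the table places 59 tRNA genes in order between TRI-TAT2-2 and TRI-TAT3-1, TRI-TAT2-3 among them. Between these outer genes the lists held 12 and 1 regions in MDA-MB-231 libraries 1 and 2, and 0 and 4 in MDA-LM2 libraries 1 and 2. None came closer than 38.6 kb to any of the 3 genes. The 12 regions of MDA-MB-231 library 1 ran from the 2.01st to the 79.3rd percentile by score, with a median at the 40.4th, some below and some above the score of TRI-TAT1-1 in the same library. The 4 regions of MDA-LM2 library 2 ran from the 3.81st to the 63.3rd percentile, with a median at the 16.7th, all below TRI-TAT1-1 there.

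TRI-TAT2-2, inside LINC00240, had no listed region within 100 kb in any of the 4 libraries. The nearest region of MDA-MB-231 library 1 was at 27144674 to 27145278, 156 kb away, and that of MDA-LM2 library 2 was at 27145068 to 27145168, inside it and 157 kb away. On the other side the nearest regions of these libraries were 416 and 450.0 kb away. MDA-MB-231 library 2 and MDA-LM2 library 1 had theirs at 27870504 to 27870958 and at 26521425 to 26521594, at 882 and 467 kb. Within 1 Mb of TRI-TAT2-2 there were 26 and 1 regions in MDA-MB-231 libraries 1 and 2, and 2 and 8 in MDA-LM2 libraries 1 and 2.

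TRI-TAT2-3, with tRNA genes as direct neighbours, had the closest listed region of the 3 chromosome 6 genes in every library except MDA-LM2 library 1, where it had the farthest. In MDA-MB-231 library 1 regions stood on both sides, at 27560365 to 27560629 and 27655812 to 27656286, 38.6 and 56.5 kb away. In MDA-LM2 library 2 the nearest was at 27721037 to 27721236, 122 kb away. MDA-MB-231 library 2 had the same region as above at 271 kb, and MDA-LM2 library 1 had nothing within 1 Mb, with its nearest region 1.08 Mb away. Within 1 Mb the counts were 14, 1, 0 and 4 in MDA-MB-231 libraries 1 and 2 and MDA-LM2 libraries 1 and 2.

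TRI-TAT3-1, beside GPX5, had its nearest region at 28574694 to 28574794 in MDA-MB-231 library 1, 69.2 kb away, one of the weaker regions of that list with a score at the 5.57th percentile. MDA-LM2 library 2 had one at 28697031 to 28697167, 192 kb away, and MDA-LM2 library 1 one at 28831308 to 28831431, 326 kb away. MDA-MB-231 library 2 had its single region of chromosome 6 at 634 kb. At all 3 genes the nearest region of MDA-MB-231 library 1 was closer than those of the other libraries, at TRI-TAT2-2 by under 1 kb.

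**Figure D4:**
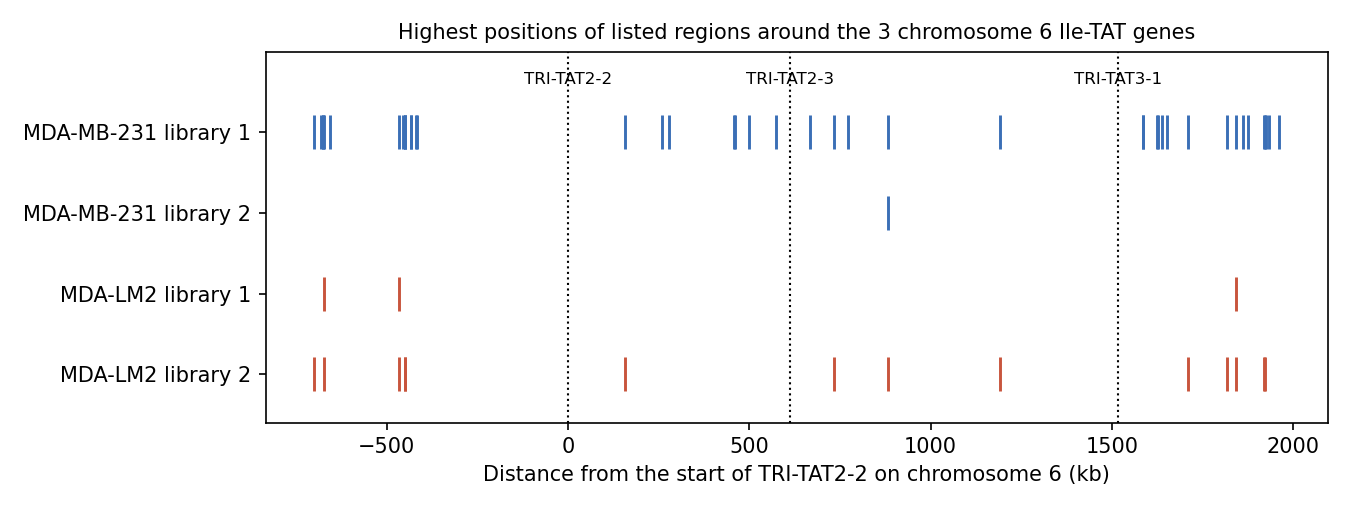
Highest positions of listed regions around the chromosome 6 Ile-TAT genes, in kb from the start of TRI-TAT2-2 (blue MDA-MB-231, red MDA-LM2). Dotted lines mark the 3 genes, and no region stands within 38.6 kb of them. Between the outer genes lie 12, 1, 0 and 4 regions from top to bottom.

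No region was listed in the Ile-GAT span in any of the 4 libraries. The counts were 0 in each library of both lines, which leaves nothing to test, and they stayed 0 with the span widened by 1 Mb on each side. MDA-MB-231 libraries 1 and 2 listed 53 and 0 regions on chromosome X, and MDA-LM2 libraries 1 and 2 listed 2 and 36. The nearest to the span was 14.8 Mb away in both long lists, at 18692939 to 18693203 in MDA-MB-231 library 1 and at 18692901 to 18693119 in MDA-LM2 library 2. In MDA-LM2 library 1 it was at 58574822 to 58574929, 54.7 Mb away. Besides the Ile-GAT genes the table has 1 tRNA gene on chromosome X, TRV-TAC1-2, a valine tRNA gene, and whether the regions of the long lists lie at it was not determined, as the table is of another build. With no region in either line, occupancy at the Ile-GAT genes could not be compared between MDA-MB-231 and MDA-LM2 from these lists.

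No Ile-TAT gene was listed by both libraries of a line. Such a listing was rare in general, with 2.03% of the merged regions in both lists of MDA-MB-231 and 6.85% in both lists of MDA-LM2, so its absence at these genes is no result about them. The 14 Ile-AAT genes of the table, which supply most isoleucine tRNA genes, were not analysed here. The gene names mark TRI-TAT2-1, TRI-TAT2-2 and TRI-TAT2-3 as copies with the same mature tRNA, and likewise the 3 Ile-GAT genes. Reads were 50 nt long, and the sources used here do not say how reads that match several copies were placed.

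The regions most like the Ile-TAT genes in listing and rank were sought among the merged regions with the same listing over the 4 libraries, of which there were 219 others for each gene. For TRI-TAT1-1 the closest was on chromosome 7 at 61080474 to 61080772, with a mean difference of 4.69 percentile points over the 2 libraries. It was followed by 2 regions on chromosome 2, at 92322353 to 92322916 (6.25 points) and 92320453 to 92321293 (10.7 points). For TRI-TAT2-1 they were on chromosome 8 at 43834682 to 43834840 (4.30 points), chromosome 16 at 46432578 to 46432838 (6.02 points) and chromosome X at 18692901 to 18693203 (8.09 points). The last is the merged region nearest to the Ile-GAT span. These regions are alike in listing and rank only. Whether any of them lies at a polymerase III gene or in repeated sequence was not determined.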

How the data were processed

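POLR3A ChIP-seq regions of 4 libraries were analysed, 2 of MDA-MB-231 and 2 of MDA-LM2. The 4 input libraries of the series were not used here. Per the labels' protocols, fixation used 1% formaldehyde for 10 minutes, sonication gave DNA of 200 to 1000 bp, and single reads had a length of 50 nt. Bowtie2 2.2, bedtools, DESeq and the build hg19 are named in the submitters' processing notes without their roles. The sources used here do not give the region caller, its threshold, the use of input or the library depth.

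The authors deposited 1 list per library, with 11 columns and no header, whose meaning was read from the values. The deposited scores are a strength score and a second score, always negative, that was used for no printed value. The deposited signal is the whole-number pile-up height, and the deposited percent column places the highest position within the region. Whether starts count from 0 or 1 is not stated, which leaves distances uncertain by 1 bp.

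Gene intervals came with the definition of the gene set and were compared with GRCh38.p14 by chromosome and length only, and no coordinate was converted. Listing meant a region within 500 bp of a gene, or overlapping the Ile-GAT span. Percentiles are the share of a list's regions with a score at or below that of the region. Regions that overlapped by at least 1 bp were merged. The lines were compared in these counts over libraries with an exact permutation test, two-sided. For each listed gene, up to 3 merged regions with the same listing and the smallest mean difference of percentile were named. Distance, listing and merging steps were tested on simulated data. Python 3.11.15, pandas 2.3.3 and scipy 1.17.1 were used. Members, lists and rules were chosen with earlier results of these data known.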

Additional observations from a re-analysis of the deposited data

How the results depend on the processing

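The difference of 0 in Ile-TAT genes listed (MDA-LM2 minus MDA-MB-231) stayed 0 with windows of 100, 1000 and 5000 bp and with the highest position of a region in place of its edge. It was -0.5 with direct overlap, 0.5 with only the regions above the median score of each list, where TRI-TAT1-1 remained in MDA-LM2 library 2 alone, and 0 when each list was reduced to its strongest 18 regions, where no Ile-TAT gene was left in any library. Without 1 library it ran from -1 to 1. With same-numbered libraries paired (replicate block), the paired differences were -2 and 2, with a mean of 0 and an exact paired permutation p of 1; with 2 pairs the numbers were not taken to pair the libraries. The Ile-GAT count was 0 in every library under all 8 alternatives, the replicate block included, where the difference was 0. Ranked on the same chromosome only, the percentiles of TRI-TAT1-1 moved from 37.9 to 5.26 in MDA-MB-231 library 1 and from 80.7 to 50.0 in MDA-LM2 library 2, over 19 and 12 regions, and by pile-up height they were 33.3 and 71.2. For TRI-TAT2-1 they went from 3.72 to 3.77 and from 23.1 to 12.2 on the same chromosome, and to 5.88 and 20.6 by height. Among the 234 shared regions they were 22.2 and 86.8 for TRI-TAT1-1, and 1.28 and 22.6 for TRI-TAT2-1. Depth is unknown, so a gene that is not listed may lie below the threshold of its library.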
